A study of Homo sapiens with 4 samples.

Results

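Accessible chromatin was examined on chromosome 6 between 26 and 29 Mb of the hg19 build, the interval known for the largest human cluster of replication-dependent histone genes and for a dense set of tRNA genes. All ATAC-seq peaks whose midpoint lay in the interval were taken, 180 of the 78744 peaks in 8 deposited lists, of which 36 were narrow and 144 broad. Membership rests on position alone, and no peak value was used for it, but the choice was made with earlier results of these data known. The cells were OVSAHO, an established ovarian cancer line. The test libraries, 1 and 2, came from cells named OVSAHO-A2-siA4, with SMARCA2 raised in a stable line and SMARCA4 knocked down. The control libraries, 1 and 2, came from cells named OVSAHO-Ctrl-siNC and labelled wild type. Both groups had grown in 25 µM carboplatin for 2 days, so every library shows drug-treated cells. The labels do not say that libraries came from separate cultures, and p-values between groups measure only the spread between these libraries, which may be technical. The authors had called narrow peaks from nucleosome-free fragments alone, and broad peaks from the full set, in each library separately. A gene annotation of hg19 was not used here, so peaks are named by position, no peak is assigned to a gene, and the name of the interval was not checked against its genes.

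Replication-dependent histone genes supply the core histones H2A, H2B, H3 and H4 and the linker histone H1 that package new DNA during S phase. They lack introns, their transcripts end in a stem-loop in place of a poly(A) tail, and they are transcribed in a nuclear body of their own. H2A and H2B genes often lie head to head and share a promoter. tRNA genes are transcribed by RNA polymerase III from promoters inside the gene, and active copies are nucleosome-depleted. SMARCA2 and SMARCA4 are the alternative ATPase motors of SWI/SNF complexes, which slide and evict nucleosomes.

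The RefSeq gene table of GRCh38.p14, used for names and gene order only, holds 55 protein-coding histone genes of these families on chromosome 6, of 73 in the table. They comprise 6 H1, 12 H2A, 15 H2B, 10 H3 and 12 H4 genes. The same table lists 155 tRNA genes on chromosome 6 of 465 in all. These counts are of the whole chromosome. How many of the genes, or of the stretches given next, lie inside the interval was not determined. In gene order the histone genes form blocks. The stretch from H4C8 to H2BC11 holds 47 tRNA genes among 84 genes, and that from H2AC12 to H2BC13 holds 51 among 77. These 2 stretches hold all 98 tRNA genes between the first and last histone gene, H2AC1 and H2BC17, and the stretch from H2BC1 to H1-1 holds 0 among 11 genes.

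Promoters of 3 histone genes are shown with matches to 3 sequence elements marked, which not every histone promoter holds. Each is the 250 bases before the start of the gene, 5′ to 3′ on the gene's strand, from RefSeq on GRCh38.p14. The strand is minus for H2BC4, plus for H2AC6 and minus for H4C2. Capitals mark matches on either strand to 3 motifs, which are the CCAAT box, the TATA box searched as TATAAA and the octamer searched as ATTTGCAT.
H2BC4: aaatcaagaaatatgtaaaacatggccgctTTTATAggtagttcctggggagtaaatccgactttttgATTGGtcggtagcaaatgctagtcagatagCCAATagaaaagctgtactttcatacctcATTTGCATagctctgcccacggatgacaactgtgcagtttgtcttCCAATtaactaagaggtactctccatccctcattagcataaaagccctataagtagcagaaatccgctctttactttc
H2AC6: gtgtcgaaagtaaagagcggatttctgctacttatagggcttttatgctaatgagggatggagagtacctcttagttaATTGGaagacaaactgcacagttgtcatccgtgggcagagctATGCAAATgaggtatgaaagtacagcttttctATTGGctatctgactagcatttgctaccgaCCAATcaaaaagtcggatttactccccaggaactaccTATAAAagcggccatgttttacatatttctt
H4C2: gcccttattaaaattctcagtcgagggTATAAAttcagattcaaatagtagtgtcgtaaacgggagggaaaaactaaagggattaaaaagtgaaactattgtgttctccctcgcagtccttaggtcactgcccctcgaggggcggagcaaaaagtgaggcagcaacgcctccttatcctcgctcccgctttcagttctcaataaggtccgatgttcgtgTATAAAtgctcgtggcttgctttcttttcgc
H2BC4 and H2AC6 point away from each other with 246 bp between their starts, so the capitals in the first 2 sequences are largely the same bases read from opposite strands. Among the 50 histone genes of chromosome 6 with a promoter in the table, the CCAAT box, bound by NF-Y, was found in 43 (86%), against 32% of all 35116 promoters. The TATA box was found in 33 (66%), against 10.7%. The octamer, bound by OCT1, was found in 22 (44%), against 1.63%. It was present in 9 of 11 H2A and 12 of 15 H2B promoters, in 1 of 8 H3 promoters and in 0 of the 10 H4 and 6 H1 promoters. The CCAAT box was present in every H1, H2A, H2B and H3 promoter and in 3 of 10 H4 promoters. No motif holds another, and a match describes the sequence and not binding. A match counted on either strand and anywhere in the 250 bases, so bases shared by a head-to-head pair counted for both genes. The only TATAAA match of H2BC4, for example, is that of H2AC6 read from the other strand. The counts are therefore not numbers of genes with an element of their own. No peak of these libraries was placed on these promoters, because the builds differ.

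Depth differed between libraries. Narrow lists rested on 6146272 to 7531794 nucleosome-free fragments in 3 libraries and on 15828837 in control 1, and broad lists on 22432549 to 31515662 fragments, again highest in control 1. Mean fragment size over all fragments was 131 bp in control 1 and 178 to 182 bp in the others. Control 1 thus stood apart in depth and fragment size, and group differences in peak number are given with and without it. Narrow peaks of the interval had a median pileup, the fragments stacked over a peak, of 5 to 7 in the 4 libraries, so single calls rest on few fragments.

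Peaks were crowded in the interval in every library and in both peak types. Both test libraries had 7 narrow peaks there, control 1 had 13 and control 2 had 9. In the order test 1, test 2, control 1, control 2, this gave 2.33, 2.33, 4.33 and 3.0 peaks per Mb, against 0.619, 0.858, 1.94 and 1.15 on the rest of chromosome 6. The interval was therefore denser than the rest by 3.77 times in test 1 and 2.72 times in test 2, and by 2.23 times in control 1 and 2.61 times in control 2, giving a mean of 2.83 ± 0.657 (SD, n = 4 libraries). Every library was above 1, and both test libraries were above both control libraries (exact two-sided permutation p = 0.33, the smallest that 2 against 2 libraries allow). Control 2 alone, at 2.61, was also below both test libraries.

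Broad peaks were more crowded still, with 42 and 33 in test 1 and test 2 and 26 and 43 in control 1 and control 2. Per Mb these were 14, 11, 8.67 and 14.3, against 2.22, 3.03, 3.80 and 3.37 on the rest of the chromosome. The ratios were 6.30 and 3.64 in the test and 2.28 and 4.25 in the control libraries, replicate 1 first, with a mean of 4.12 ± 1.67 (SD, n = 4 libraries). Control 1 was lowest in both peak types, control 2 lay between the test libraries in broad peaks, and the groups overlapped (p = 0.667 by the exact permutation test). The interval spans 1.76% of the chromosome as covered by the lists. It held 6.31% of the narrow peaks of chromosome 6 in test 1 (95% exact interval 2.57 to 12.6), 4.64% in test 2 (1.88 to 9.32), 3.83% in control 1 (2.06 to 6.47) and 4.46% in control 2 (2.06 to 8.29). For broad peaks the shares were 10.1% (7.39 to 13.4), 6.10% (4.24 to 8.46), 3.92% (2.57 to 5.68) and 7.06% (5.16 to 9.39) in the same order. All 8 shares were above that of length, but peaks were not spread evenly along the chromosome, and other windows were about as full, as given below. The exact intervals cover counting error only and take peaks as independent. Peaks of a list are not replicates, so no test over peaks was made.

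**Figure D1:**
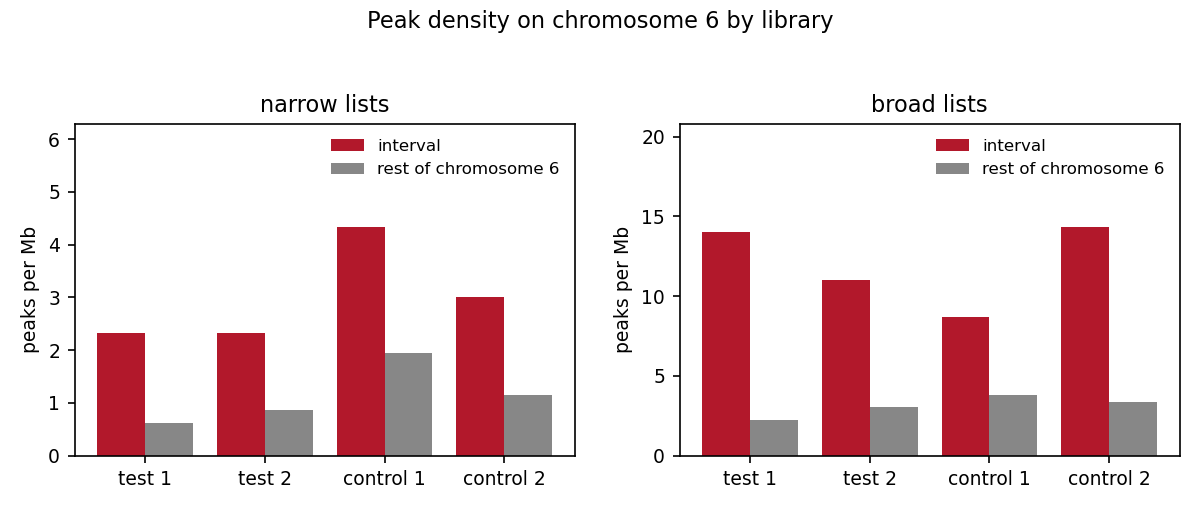
Bars give peaks per Mb (y axis) in the chromosome 6 interval and on the rest of chromosome 6 for each of the 4 libraries, in narrow and broad lists, with 1 value per bar and so no error bar. The interval bar is higher in all 8 lists, from 2.33 to 4.33 narrow and from 8.67 to 14.3 broad peaks per Mb.

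The density of the interval depended on what it was set against and on how strong a peak had to be. Against chromosomes 1 to 22 and X, the mean narrow ratio was 1.63 and the broad one 2.89. Among peaks with a −log10 q of 5 or more, stricter than the authors' q of 0.05, the interval kept 0, 1, 2 and 3 narrow peaks in test 1, test 2, control 1 and control 2. Their density ratios were 0, 1.14, 1.36 and 2.89 in that order, a mean of 1.35. Broad peaks that strong numbered 4, 2, 1 and 5, with ratios of 1.95, 1.83, 2.43 and 2.37 and a mean of 2.15. The mean ratio was therefore lower among strong peaks in both types, while that of control 2 in narrow and of control 1 in broad peaks was higher. In lists of equal length the narrow ratios were 3.77 and 1.08 in the test and 1.55 and 2.02 in the control libraries, replicate 1 first. The order of the groups in narrow density thus did not hold, since it turned round among strong peaks and the groups overlapped at equal lengths.

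Some other windows of chromosome 6 were about as full or fuller. The stretch of chromosome 6 from position 2000001 to 170000000 was divided into 56 windows of 3 Mb, 1 of them the interval. The chromosome ends beyond that stretch hold peaks too, and were left out of the ranks. In broad peaks the interval ranked 1 in test 1, shared rank 1 with another window in test 2, and ranked 3 in control 2 and 9 in control 1. The median window held 5, 5.5, 7 and 3 broad peaks in those libraries. The next window downstream, from 29 to 32 Mb, held 32, 32, 44 and 28 broad peaks, close to the interval itself. The window upstream, from 23 to 26 Mb, held 9, 9, 13 and 13. In narrow peaks the interval ranked 4, 5, 9 and 5 in test 1, test 2, control 1 and control 2, with ties given the higher rank. Summed over the libraries, the interval had the most broad peaks of any window, 144, with 141 from 44 to 47 Mb and 136 from 29 to 32 Mb. It was thus among the fullest windows in each library and stood alone at the top in test 1 only, in broad peaks.

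**Figure D2:**
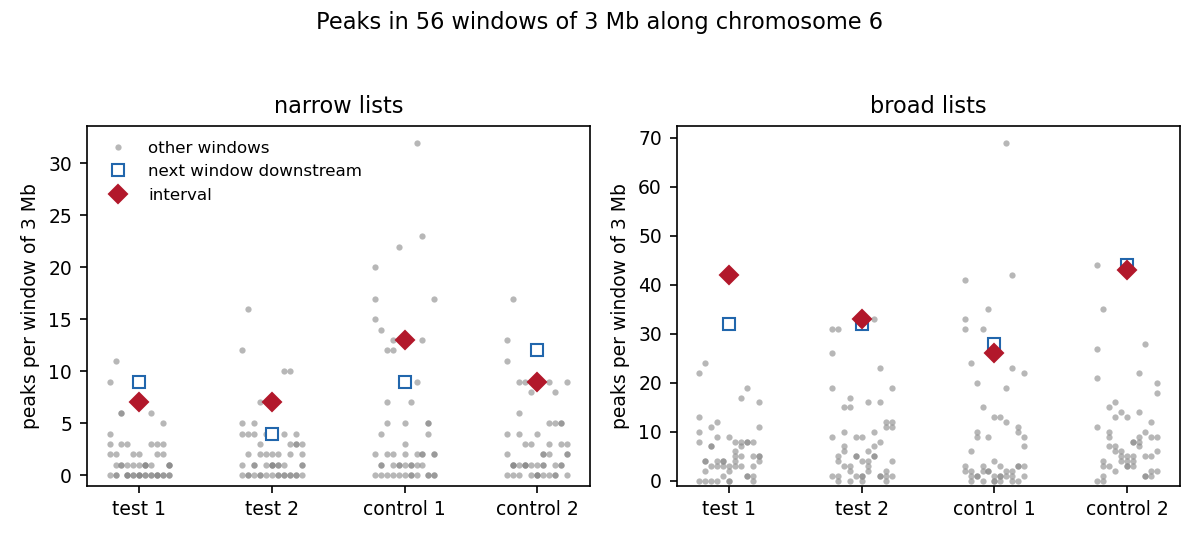
Each dot is the number of peaks (y axis) in 1 of 56 windows of 3 Mb along chromosome 6, for each library. The windows run from position 2000001 to 170000000 and leave out the chromosome ends. The diamond is the interval and the open square the next window downstream, and in broad lists the interval has 42, 33, 26 and 43 peaks against window medians of 5, 5.5, 3 and 7 in test 1, test 2, control 1 and control 2.

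Broad peaks were spread over the whole interval in 3 libraries and unevenly in control 1, and narrow peaks left steps of 500 kb empty in every library. In steps of 500 kb, broad peaks summed over libraries numbered 24, 22, 26, 24, 26 and 22, a near even cover. Test 1 had its most broad peaks, 10, between 27.5 and 28 Mb. Control 1 had 0 broad peaks from 28.5 to 29 Mb, where the other libraries had 7 or 8, and none before chr6:26368819-26368955. In narrow peaks, control 1 had 7 of its 13 between 26.5 and 27 Mb, where test 1 had 0 and test 2 and control 2 had 2 each. The local crowding of control 1 included 3 narrow peaks at chr6:26798437-26798554, chr6:26798655-26798790 and chr6:26799001-26799076, with fold enrichment of 4.43, 6.29 and 6.85. Those 3 lay inside a broad region of control 1 and test 2. Median distance between neighbouring merged broad regions was 26 kb, against 40.2 kb on the rest of chromosome 6, and the longest gap without any broad region was 145.7 kb. The broad regions nearest the borders lay at chr6:25992769-25993355 and chr6:29049763-29050181 outside, with fold enrichment up to 5.19 and 3.55, and at chr6:26032006-26032466 and chr6:28982981-28983260 inside, with up to 4.74 and 3.32, so in broad regions the borders cut through no wide gap. Narrow regions were sparser there, and the nearest lay at chr6:25330392-25330467 and chr6:29630514-29630588 outside and at chr6:26070630-26070696 and chr6:28911482-28911563 inside. Both borders thus fell in stretches without a narrow region that were longer than the longest one inside the interval, 473.4 kb.

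**Figure D3:**
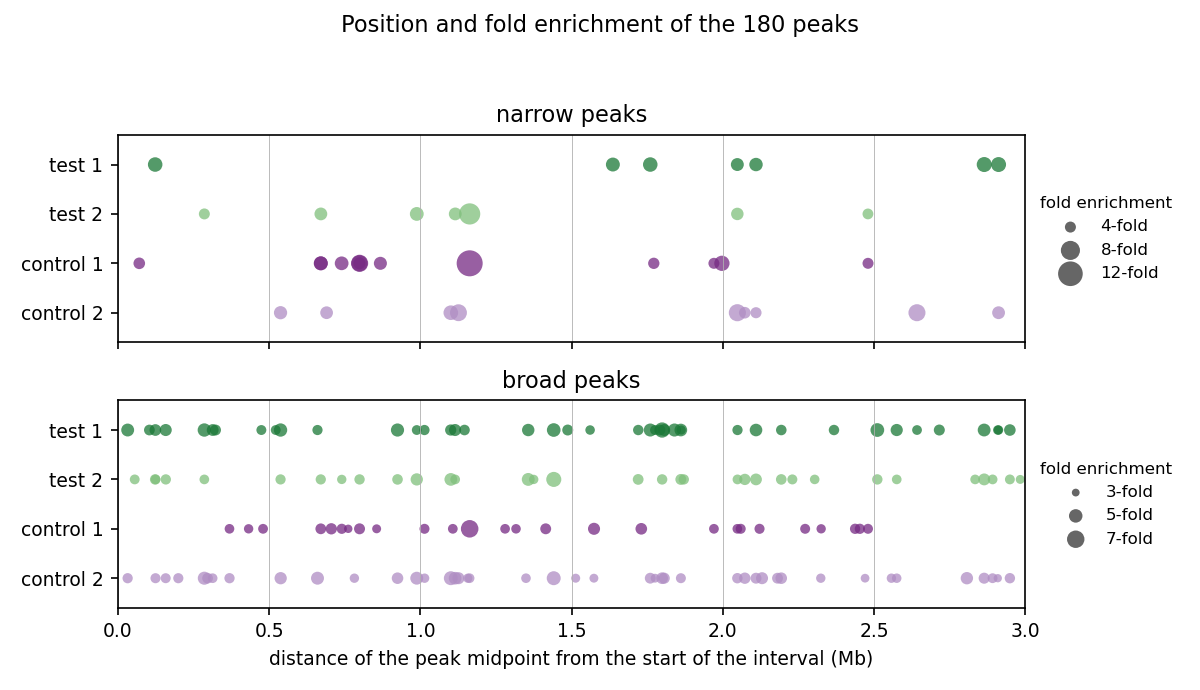
Each dot is 1 of the 180 peaks, placed by the distance of its midpoint from the start of the interval in Mb (x axis) and by library (y axis), with dot area rising with fold enrichment. Broad peaks of test 1, test 2 and control 2 fall in every step of 500 kb. Those of control 1 are missing before 0.369 Mb and over the last 0.5 Mb, and are unevenly spread between.

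Peaks of the interval were of ordinary or low strength. Fold enrichment is the authors' ratio of a peak's pileup to the local background of its own library, with 1 added to each. Median background under narrow peaks of the interval was 0.232 to 0.535, so the added 1 outweighs it. Fold enrichment is compared here only within a list. The narrow peaks of test 1 ranged from 4.75 to 5.72 with a median of 5.47, against a median of 6.06 on the rest of chromosome 6. In test 2 the range was 3.92 to 9.39 and the median 4.69, against 5.59. In control 1 the range was 3.99 to 13.1 and the median 5.11, against 5.25. In control 2 the range was 4.03 to 6.82 and the median 4.89, against 5.66. The median was lower in the interval in 4 of 4 libraries, and the mean ratio of medians was 0.895 ± 0.058 (SD, n = 4 libraries). Among the 6 narrow peaks with a −log10 q of 5 or more it was 1.19, over the 3 libraries that had such peaks, and in lists of equal length it was 1.05. Broad peaks had medians of 4.03 and 3.75 in the test and 3.65 and 3.78 in the control libraries, replicate 1 first, against 4.13, 3.69, 3.59 and 3.80, a mean ratio of 1.0 ± 0.019 (SD, n = 4 libraries). Broad peaks were thus about as strong as elsewhere on the chromosome. Test and control libraries overlapped in the ratio for narrow peaks and for broad peaks (p = 0.667 for each by the exact permutation test), and control 2 alone, at 0.863 and 0.993, lay between the test libraries in both. The highest fold enrichment of the interval was 5.72 to 13.1 in narrow and 5.21 to 7.06 in broad lists. On the rest of chromosome 6 it was 33.9 to 46.4 and 7.50 to 19.1. The rest holds many more peaks, so its higher maximum does not measure the strength of the interval.

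Few of the peaks were strong by q. Of the narrow peaks of the interval, the shares with a −log10 q of at least 5 were 0%, 14.3%, 15.4% and 33.3% in test 1, test 2, control 1 and control 2. On the rest of chromosome 6 the shares were 43.3%, 34.0%, 25.2% and 30.1%, higher in all libraries but control 2. For broad peaks the shares were 9.52%, 6.06%, 3.85% and 11.6% in the interval and 30.8%, 12%, 3.61% and 20.8% elsewhere, so control 1 alone had a slightly higher share in the interval. By the limit of 3 counts used here for a count of 0, 0 of 7 narrow peaks in test 1 allows a share of up to 42.9%. The local background recovered from pileup and fold enrichment was lower in the interval or nearly equal in every list but the narrow list of control 1, where it was slightly higher. Its median under narrow peaks was 0.232, 0.276, 0.535 and 0.241 fragments, against 0.279, 0.276, 0.523 and 0.303 on the rest of the chromosome, in test 1, test 2, control 1 and control 2. Under broad peaks it was 1.97, 1.84, 1.74 and 2.19, against 2.00, 2.03, 1.92 and 2.26.

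Narrow peaks of the interval were short and broad peaks were mostly long. Median narrow width was 79 and 75 bp in test 1 and test 2 and 71 and 87 bp in control 1 and control 2, against 103.5, 82.5, 77 and 92 bp on the rest of chromosome 6. The interval was lower in 4 of 4 libraries, with a mean ratio of 0.885 ± 0.083 (SD, n = 4 libraries). Median broad width was 384.5 and 395 bp in test 1 and test 2 and 265 and 340 bp in control 1 and control 2, against 333, 336, 231 and 356 bp. It was higher in the interval in 3 libraries and lower in control 2, with a mean ratio of 1.11 ± 0.103 (SD, n = 4 libraries), and the ratio was 0.810 among peaks with a −log10 q of 5 or more. The widest broad peak of each library was 1069 to 1393 bp. Relative to the rest of the chromosome, both test libraries had shorter narrow peaks and longer broad peaks than both control libraries, with ratios of 0.763 and 0.909 against 0.922 and 0.946 for narrow width and of 1.155 and 1.176 against 1.147 and 0.955 for broad width (p = 0.33 for each by the exact permutation test, its smallest, and control 2 alone lay on the same side of both test libraries). Broad peaks covered 0.680%, 0.487%, 0.336% and 0.592% of the bases of the interval, against 0.0877%, 0.122%, 0.122% and 0.142% of the rest of the chromosome. Most narrow peaks overlapped a broad peak from their own library, namely 6 of 7, 5 of 7, 9 of 13 and 6 of 9 in test 1, test 2, control 1 and control 2 (85.7%, 71.4%, 69.2% and 66.7%). On the rest of chromosome 6 these shares were 70.2%, 55.6%, 39.3% and 65.3%, nearly the same in control 2 and lower in the others.

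**Figure D4:**
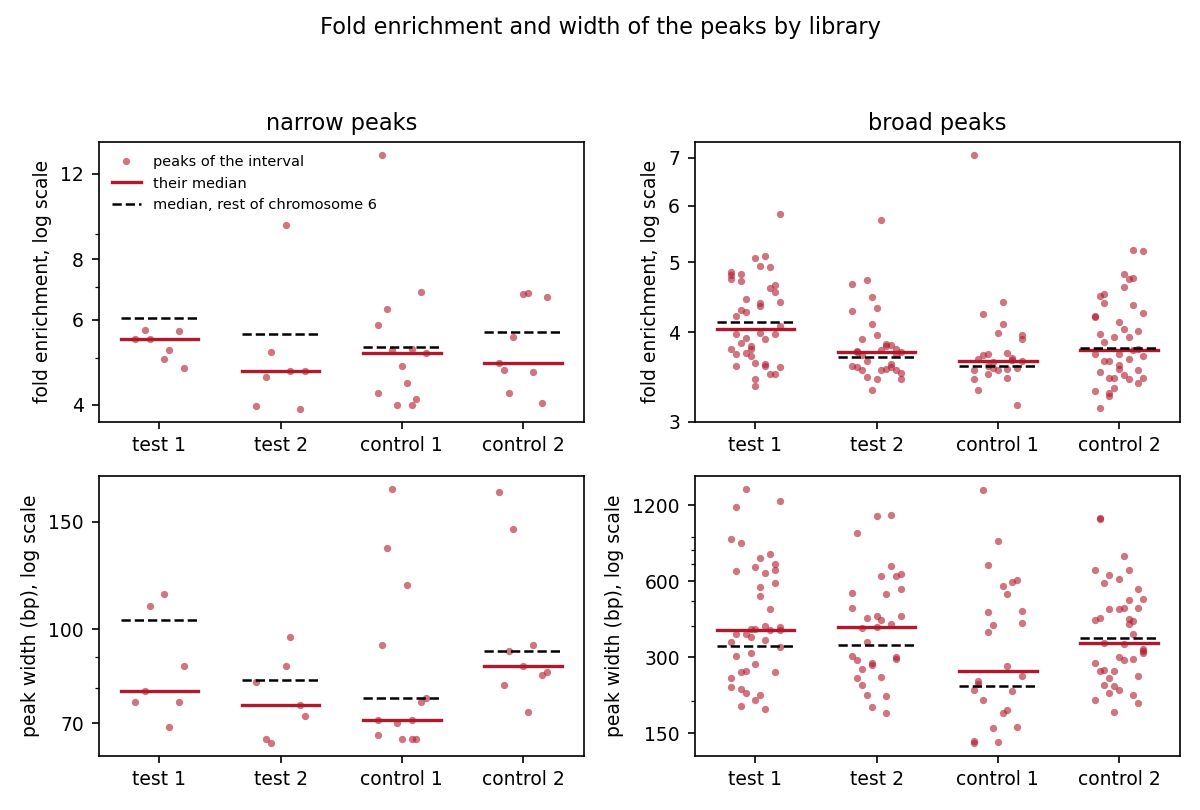
Dots are single peaks of the interval by library, with fold enrichment in the upper row and width in bp in the lower row, on log axes. Solid lines are their medians and dashed lines the medians of the rest of chromosome 6, and the solid line is the lower one for narrow peaks in all 4 libraries in both rows.

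Sharing between libraries was low for narrow peaks. Merging peaks that shared 1 bp or more gave 30 narrow regions, of which 25 (83.3%, 95% exact interval 65.3 to 94.4) were called in 1 library. On the rest of chromosome 6 the share was 84.6% (81.5 to 87.4), and over chromosomes 1 to 22 and X it was 80.7%. No narrow region of the interval was called in all 4 libraries, against 3.86% of the regions of chromosomes 1 to 22 and X, and for 0 of 30 the 95% exact interval reaches 11.6%, while 3 counts in 30, the limit used here for a count of 0, are 10%. A single region, or 3.33%, was called in 3 libraries, against 9.27% called in 3 or 4 over chromosomes 1 to 22 and X and 6.89% on the rest of chromosome 6, where 2.30% were called in all 4. Control 1 shared 2 of its 13 narrow regions, both with test 2 and none with test 1 or control 2. Narrow calls in the interval were thus mostly those of a single library, as on the rest of the chromosome.

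Broad regions were shared more often than narrow ones. There were 89, of which 54 (60.7%, 95% exact interval 49.7 to 70.9) were called in 1 library, against 71.2% (68.8 to 73.5) on the rest of chromosome 6 and 70.4% over chromosomes 1 to 22 and X. Of the 89, 17 were called in 2 libraries, 17 in 3 and 1 in all 4. The share called in 3 or 4 libraries was 20.2% (12.4 to 30.1), against 14.8% (13.0 to 16.7) on the rest of the chromosome and 15.7% over chromosomes 1 to 22 and X, and the intervals overlapped. In all 4 libraries the share was 1.12%, against 3.04%. Test 1 shared 28 of 42 regions (66.7%), test 2 shared 25 of 32 (78.1%), control 2 shared 29 of 43 (67.4%) and control 1 shared 7 of 26 (26.9%). On the rest of chromosome 6 the shares were 76.6%, 64.9%, 57.7% and 19.2% in the same order, so test 1 shared less in the interval and the other 3 libraries more. Test 1 had 25 regions in common with control 2 and 20 with test 2, and test 2 had 19 with control 2. Control 1 had 2, 4 and 4 in common with test 1, test 2 and control 2. Libraries of 1 group thus did not always share more than libraries of different groups.

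**Figure D5:**
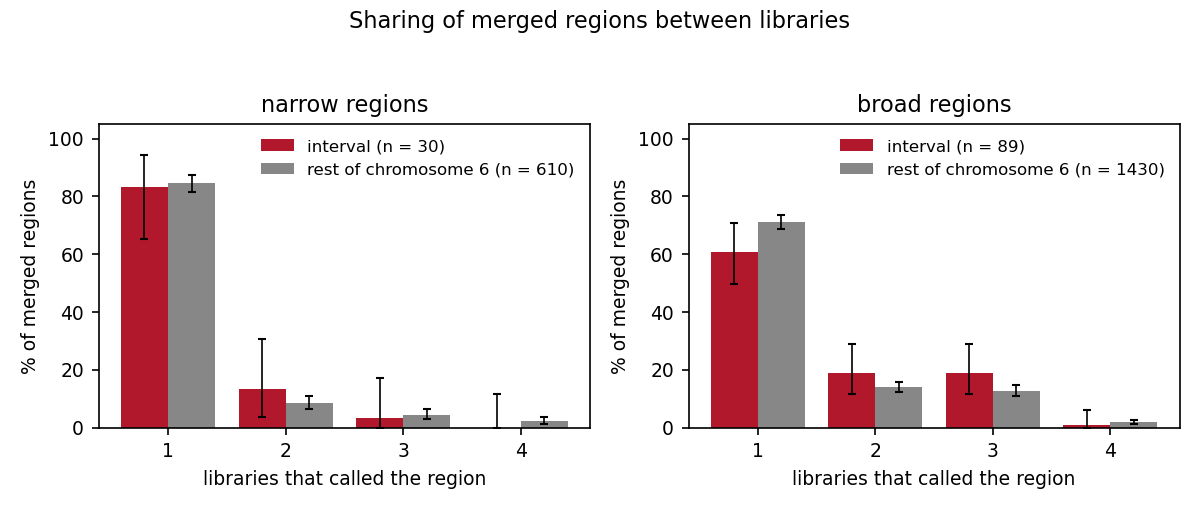
Bars give the percent of merged regions (y axis) by the number of libraries that called them (x axis), for the interval and the rest of chromosome 6, with 95% exact intervals that cover counting error only. In broad regions the interval has 60.7% in 1 library against 71.2% elsewhere, and in narrow regions the bars differ by less than their intervals.

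Of the 17 broad regions in 3 libraries, 16 were those of test 1, test 2 and control 2 without control 1, or 18.0% of 89 (95% exact interval 10.6 to 27.5). The same pattern made up 11.5% (9.86 to 13.2) on the rest of chromosome 6 and 10.5% over chromosomes 1 to 22 and X. Fold enrichment in these 16 was 3.59 to 5.84 with a median of 4.53 in test 1, 3.54 to 5.73 with a median of 3.83 in test 2, and 3.48 to 5.21 with a median of 4.20 in control 2. The region chr6:27440467-27441242 was high in all 3, at 5.07, 5.73 and 5.21 in that order. The region chr6:27099629-27100932, 1304 bp wide, had 4.07, 4.67 and 5.19, and chr6:26123206-26124602, 1397 bp wide, had 4.26, 3.82 and 3.67. A narrow peak lay in 8 of the 16, called in 1 library in 7 of them and in 2 libraries in the eighth. These 3 regions were picked with their values in view.

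Another 3 broad regions (3.37%) were called in test 2 and control 1 alone, all between 26.5 and 27 Mb, against 4.34% of regions on the rest of chromosome 6. These lay at chr6:26670387-26671055, with fold enrichment of 3.72 in test 2 and 3.92 in control 1, at chr6:26739441-26740818, with 3.44 and 3.71, and at chr6:26798423-26799382, with 3.76 and 3.98. All 3 held narrow peaks of control 1. The first also held a narrow peak of test 2, at chr6:26670961-26671140, with 4.69 in test 2 and 5.18 in control 1. The strongest narrow region of the interval followed the same pair of libraries. It lay at chr6:27162907-27163001, where fold enrichment was 9.39 in test 2 and 13.1 in control 1 with pileups of 10 and 17, and its summits in the libraries were at 27162948 and 27162959. Broad peaks covered it in control 1, at 7.06, and in control 2, at 3.55. These regions, too, were picked with their values in view.

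The region called most widely lay at chr6:28047821-28048997. Broad peaks were called there in all 4 libraries, with fold enrichment of 3.72 and 3.58 in the test and 3.54 and 3.79 in the control libraries, replicate 1 first, and widths in that order of 1176, 1097, 138 and 198 bp. The fold values lay close together, and both test peaks were wider than both control peaks. A narrow region at its left end, chr6:28047822-28047976, was the only one called in 3 libraries when 1 shared bp was enough. The peak of control 2 met the test peaks only at their ends. At an overlap of 50% of the shorter peak, 0% of narrow regions were called in 3 or 4 libraries, and the test peaks here formed 1 test-only region. Fold enrichment in the merged region was 6.82 in control 2 and 4.75 and 4.56 in the test libraries. The summits, at 28047846 and 28047874 in the test libraries and at 28047919 in control 2, lay apart by up to 73 bp, about the width of a peak. Other narrow regions in more than 1 library were chr6:28109545-28109658, with 4.97 in test 1 and 4.03 in control 2, and chr6:28911482-28911563, with 5.68 and 4.71 in the same libraries. Neither was called in test 2.

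The comparison of test and control cells asked whether raised SMARCA2 with lowered SMARCA4 went with a gain or loss of accessible sites in the interval. Narrow peaks averaged 7 ± 0 in test and 11 ± 2.83 in control libraries (SD, n = 2 per group), a difference of 4 with an exact two-sided permutation p of 0.33, the smallest possible. Both control libraries were above both test libraries, but the difference was 2 without control 1, and per 1000000 fragments it turned to -0.0697, with 1.08 ± 0.086 in test and 1.01 ± 0.264 in control libraries. Lists of equal length also turned it, to -1.0. Broad peaks averaged 37.5 ± 6.36 in test and 34.5 ± 12 in control libraries (SD, n = 2 per group), with p = 1 by the exact permutation test. The difference of -3 became 5.5 without control 1 and 1.5 without test 1. Neither difference kept its direction in all alternatives, and a test of 2 against 2 libraries cannot show that a difference exceeds the spread between libraries.

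Regions called in both libraries of a group and neither of the other were few. Narrow regions of this kind numbered 0 for test and 0 for control, against 1.25% of the regions of chromosomes 1 to 22 and X for each, a share that would be under 1 region of 30. Test-only broad regions numbered 3 of 89 (3.37%, 95% exact interval 0.701 to 9.54), against 1.03% over chromosomes 1 to 22 and X. They were chr6:27356422-27356764, where the test libraries had a fold enrichment of 4.54 and 4.73, chr6:28510511-28510908, with 5.10 and 3.78, and chr6:27719911-27720496, with 3.78 and 3.91. None of the 3 held a narrow peak of any library. Control-only broad regions numbered 2 of 89 (2.25%, 0.273 to 7.88), against 1.24%. They were chr6:26368819-26369124, with 3.54 in control 1 and 3.73 in control 2, and chr6:27162381-27163003, with 7.06 and 3.55, which held narrow peaks of test 2 and control 1. The second is therefore not a control-only site once both peak types are read. Among peaks with a −log10 q of 5 or more, both counts were 0. At an overlap of 50% of the shorter peak, 2 test-only and 1 control-only broad regions were left. The peaks at chr6:27719911-27720496 and at chr6:26368819-26369124 overlapped by less than that, so these regions dropped out. Leaving out 1 library at a time gave 3 to 19 test-only and 2 to 21 control-only broad regions, highest without control 2 in both, and 17 control-only regions without control 1, against 17 test-only without test 2 and 11 without test 1.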

How the data were processed

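The members and alternatives were chosen with earlier results of these data known. ATAC-seq peak lists of 2 test and 2 control libraries were used. Per the file headers, MACS2 2.2.7.1 called peaks in each library separately, with no control sample, all duplicates kept and a q threshold of 0.05. The hg19 build comes from the submitters' processing notes. The deposited pileup is a coverage signal, p and q are deposited on the −log10 scale, and fold enrichment is deposited as a ratio of pileup to local background. None is normalized between libraries, and repeats can be called as peaks. A deeper list passes weaker sites.

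From these, peaks on chromosomes 1 to 22 and X were assigned to the interval by midpoint and merged across libraries. The rest of chromosome 6 was the 167.9 Mb between the first and last base of any peak. Local background was (pileup + 1) divided by fold enrichment, minus 1. Group means were compared over all 6 assignments of libraries in an exact permutation test, two-sided. Shares have 95% exact (Clopper-Pearson) intervals.

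Regions to name were those in all 4 libraries (narrow, the first 10 by the smallest fold enrichment percentile, broad, the 5 widest) and the first 5 test-only and control-only ones. Genes were to be named from an hg19 annotation, which was not used here. Motifs and promoters were added after the lists had been seen. The merging was tested on simulated data with well separated sites, where all peaks of a site spanned a shared core. That test does not cover close neighbours or peaks that meet only at their ends. Alternatives were a −log10 q of 5, lists of equal length, membership by any overlap, 2 other references, an overlap of 50%, merging within 100 bp, each library left out and a replicate block. A rate per 1000000 fragments and a crossed block were added after the data were seen. Software was scipy 1.17.1, numpy 2.4.6, matplotlib 3.10.9, pandas 2.3.3 and Python 3.11.15.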

Additional observations from a re-analysis of the deposited data

How the results depend on the processing

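The narrow excess of control libraries, 4 peaks, turned to -1.0 in lists of equal length and to -0.0697 per 1000000 fragments, and the broad difference, -3, was 0 at a −log10 q of 5 or more and between -11.5 and 5.5 with 1 library left out. At that threshold the narrow density ratio was 1.35 and the broad one 2.15, the ratios of median fold enrichment were 1.19 (narrow, 3 libraries) and 1.02 (broad), those of median width 0.781 and 0.810, and no region was called in 3 libraries or in a group alone (0 in each count). Equal lengths gave a narrow density ratio of 2.10, a narrow fold ratio of 1.05, a narrow share in 3 or 4 libraries of 0% and 0 control-only broad regions. Chromosomes 1 to 22 and X as the reference gave a narrow density ratio of 1.63. An overlap of 50% gave a narrow share of 0%, 1 test-only narrow and 1 control-only broad region. Leaving out 1 library, where all 3 others had to call a region, gave shares of 0% to 5.26% (narrow) and 1.32% to 23.9% (broad), 0 to 4 test-only and 0 to 11 control-only narrow regions, and 3 to 19 and 2 to 21 broad ones. The mean density ratios stayed above 1 in every alternative, while that of test 1 was 0 in narrow peaks at the stricter threshold. With a replicate block the differences were 4 (exact sign-flip p = 0.5, the smallest possible) and -3 (p = 1). Same-numbered libraries deviated in opposite directions (r = -0.277 in narrow, -0.688 in broad peaks, over 938 and 977 windows of 3 Mb). Crossing the numbers cannot change a difference of group means, so these stayed 4 and -3. The exact sign-flip p was also the same for each, but so few libraries allow few values of it, so this decides nothing. In every case where a value moved, the cause was not tested. Low pileup, with library medians of 5 to 7 fragments, limits single narrow calls.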
